A study of Mus musculus with 18 samples.

Results

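Translation initiation factors (eIFs) and elongation factors (eEFs) are the proteins that load messenger RNA onto the ribosome, select the start codon and move the ribosome along the message. The 54 genes described here are all rows of the liver expression table whose mouse symbol starts with Eif or Eef and a number, leaving out the eIF2 kinases (Eif2ak genes) and the eIF4E-binding proteins (Eif4ebp genes), which regulate translation. They make up 54 of the 14451 genes in the table, with 46 initiation factors and 8 genes of elongation. The rule used names and no measured value, but the set was chosen with earlier results of these data known. Eef1a2 and Eif5a2, the second copies of Eef1a1 and Eif5a, were not among the rows matched and are not analysed here.

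RNA sequencing was done on whole livers of wild-type (WT) male mice aged 8 to 9 weeks, which lived in 12 h of light and 12 h of dark. Livers were taken at zeitgeber times (ZT, hours after the lights come on) 1, 5, 9, 13, 17 and 21, with 3 livers at each of the 6 times and 18 livers in all. The study's purpose was to find genes whose messenger RNA rises and falls over the day. The 3 livers of a time were those with the best RNA of a larger group of mice, each time was sampled in a single cycle, and time of day was not varied apart from feeding or sleep, so the effects of these cannot be told apart.

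Initiation starts when eIF2 brings the initiator tRNA to the small ribosomal subunit, where eIF1, eIF1A, eIF3 and eIF5 bind as well. The eIF4F complex, made of the cap-binding eIF4E, the scaffold eIF4G and the RNA helicase eIF4A, recruits the message, and eIF4B stimulates the helicase. After the subunits join, eEF1A delivers each aminoacyl-tRNA and eEF2 moves the ribosome by a codon. In liver, protein synthesis responds to feeding through the mTOR kinase, which acts on eIF4E-binding proteins, and through kinases that phosphorylate eIF2.

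Depth ranged from 10268168 to 23242842 estimated reads per liver, with a median of 12078875, and the deepest library was ZT5 replicate 3. No translation factor was at the lowest value of a liver, and the smallest member value stood for 28.8 estimated reads, so depth limited no member to the floor. The summed values of 5 hepatocyte markers were between 69201 and 99237 in each liver and were lowest at ZT9, where the livers ranged from 69201 to 73299. Summed markers of Kupffer cells, the liver's macrophages, were between 85.3 and 229, those of sinusoidal endothelium between 78.5 and 190, of stellate cells between 153 and 242, and of bile duct between 31.5 and 57.5. The 3 of 5 lymphocyte markers with a row summed to 1.11 to 4.19, and 3 of 5 skeletal muscle markers to 0.391 to 3.82. Red blood cell markers summed to 108 to 674. Kupffer markers were low at ZT21, at 86.0 to 133, and high at ZT5, at 169 to 229, and the part of cell makeup in the results below was not tested. In bulk tissue, fewer cells of a type and less RNA per cell cannot be told apart.

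Levels are given as the deposited normalized value, the estimated count plus 0.5 scaled to 1000000 reads. For comparison between genes they were divided by the length of all exons of the gene. On this scale of value per kilobase (kb), Eef1a1 was highest with a mean over the 18 livers of 1632 per kb, followed by Eef2 with 361 per kb. Eif1 had 120 per kb and Eif5a 118 per kb, which lie close to each other. Within the other roles the highest were Eif4a1 with 59.9 per kb, Eif3h with 53.99 per kb, Eif2s3x with 23.2 per kb and Eif2b5 with 12.5 per kb. The lowest member was Eif2b3, the gamma subunit of the eIF2B exchange factor, with 1.41 per kb. The level of Eef1a1 is uncertain, since 60.6% of the 50-base words of its longest transcript also occurred in transcripts of other genes. The length counts every annotated exon once, so a gene with long exons that the liver does not use is placed too low.

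**Figure D1:**
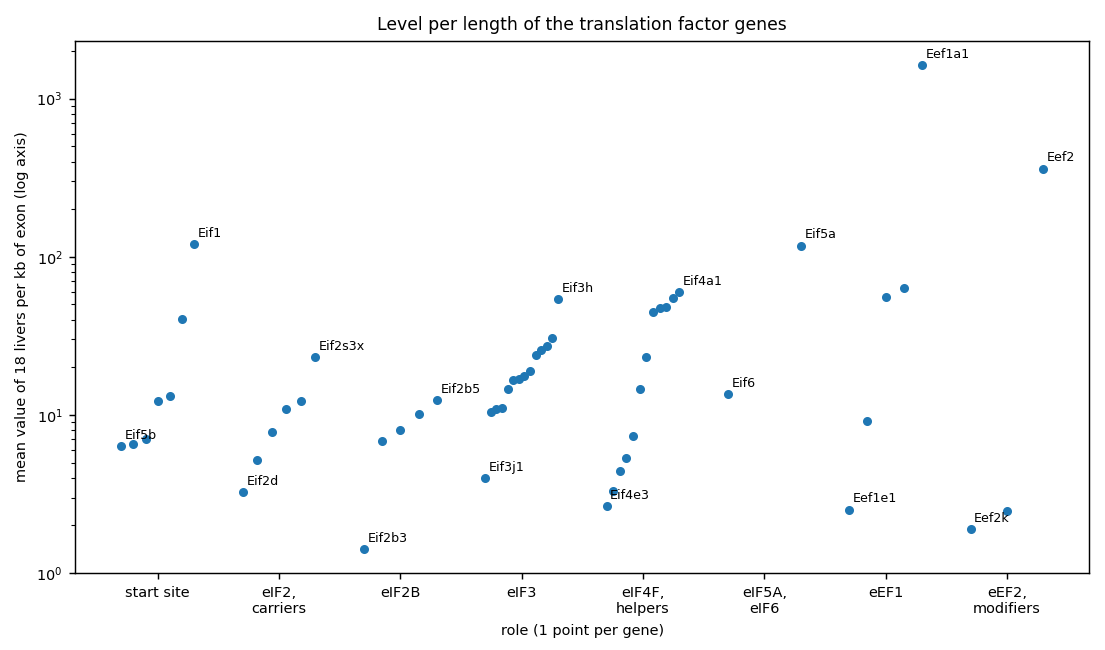
Mean value of the 18 livers per kb of exon for each of the 54 translation factor genes, on a log axis, by role; each point is 1 gene, and the lowest and highest of each role are named. Eef1a1 at 1632 per kb and Eef2 at 361 per kb stand above all initiation factors, of which Eif1 at 120 per kb and Eif5a at 118 per kb are highest.

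The question put to each gene was whether its level followed a 24 h rhythm. Of the 54 genes, 19 (35.2%) were called by a 24 h cosine in limma (Benjamini-Hochberg adjusted p below 0.05 over all genes), and the share over all 14449 genes tested was 35.3%. Many of all genes are low, and among the 8663 genes whose mean value lay within the range of the 54 (6.58 to 4068), 45.0% were called, so the factors' share was close to that of all genes and below that of genes at like levels. JTK, a rank test that the study used, was rewritten here and called 9 (16.7%), against 14.1% of all genes and 20.5% of those at like levels. The 9 were Eif1a, Eif2b5, Eif3j2, Eif4a1, Eif4a2, Eif4b, Eif4e, Eif5a and Eif6, all of which the cosine called too. The study's own JTK run on these livers called more genes than the 2039 called here, so these JTK counts are not the study's. The JTK count ran from 3 to 11 with 1 liver left out, while that over all genes, 2039 with all livers, ran from 1266 to 1913. It was 3 without ZT5 replicate 1 (1699 of all genes), and 5 without ZT5 replicate 2 (1266), ZT5 replicate 3 (1673) or ZT17 replicate 1 (1623). It was 16, against 3237 of all genes, under a null that pools times at which the cosine has the same height. A test for any difference between the 6 times called 15 (27.8%), against 26.3% of all genes and 33.9% of those at like levels.

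The amplitudes were small. The amplitude, measured on the log2 scale from the fitted mean to the peak, had a median of 0.11 over the 54 genes and of 0.16 over all genes tested. Among called genes the medians were 0.18 for the 19 translation factors and 0.28 for all genes. Dividing each gene's highest time mean by its lowest gave ratios that ran from 1.08 for Eif2s3x to 2.26 for Eif4e3. No gene was called for a second peak a day (limma, 12 h term, adjusted p below 0.05), against 0.872% of all genes. At an unadjusted p below 0.05 there were 7 (Eif1a, Eif1b, Eif2s1, Eif3d, Eif3m, Eif4b and Eif6), or 13.0%, against 12.6% of all genes, and this count was between 2 and 8 with any 1 liver left out, lowest without ZT21 replicate 3. It was 12 when the prior variance followed the level (1868 of all genes), 4 with columns scaled by the median of ratios (1814) and 3 with columns brought to the same total (1761), against 1815 of all genes in the fit reported. The smallest of these adjusted p values was 0.210, for Eif4b.

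Most called peaks fell early in the dark. Of the 19 called genes, 12 (63.2%) peaked from 12 to 18 h, against 25.6% of all called genes, and 2 peaked from 0 to 6 h, 4 from 6 to 12 h and 1 from 18 to 24 h. Among the 35 genes that were not called, 20 had their fitted peak from 12 to 18 h. The same share over all uncalled genes was not taken. Peak times of uncalled genes can be poorly fixed, with a standard error of 10.1 h for Eif2s3y. In the mean of the 3 dark times against that of the 3 light times, 10 (18.5%) were higher in the dark, against 11.9% of all genes and 15.8% of those at like levels, and 4 (7.41%) were lower, against 12.3% and 15.9%. The higher genes were Eef1e1, Eef1g, Eif1a, Eif1b, Eif2b4, Eif2b5, Eif3j2, Eif4a1, Eif4e and Eif5a, and the lower ones Eif2a, Eif2d, Eif4a2 and Eif4b. This split depended on scaling. With columns scaled by the median of ratios it stayed at 10 higher and 4 lower (1799 and 1719 of all genes). The share of called genes that peaked from 12 to 18 h was then 70.0%, against 26.8% of all called genes. The totals of the deposited values were themselves larger in most dark livers than in most light livers. With all columns brought to the same total 5 genes were higher and 5 lower, against 1075 and 2464 of all genes. Under this scaling the share of called genes that peaked from 12 to 18 h was 42.9%, against 16.5% of all called genes. Of the 10 higher genes, Eef1g, Eif1a, Eif1b, Eif4a1 and Eif5a kept their call under that scaling, all 4 lower genes did, and none of the 14 changed sign. The median dark minus light difference of the 54 genes was 0.09 on the log2 scale against -0.01 for all genes, and 0.03 against -0.05 after that scaling. Only for Eif4b did the 9 dark livers and the 9 light livers not overlap, against 0.9% of all genes.

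**Figure D2:**
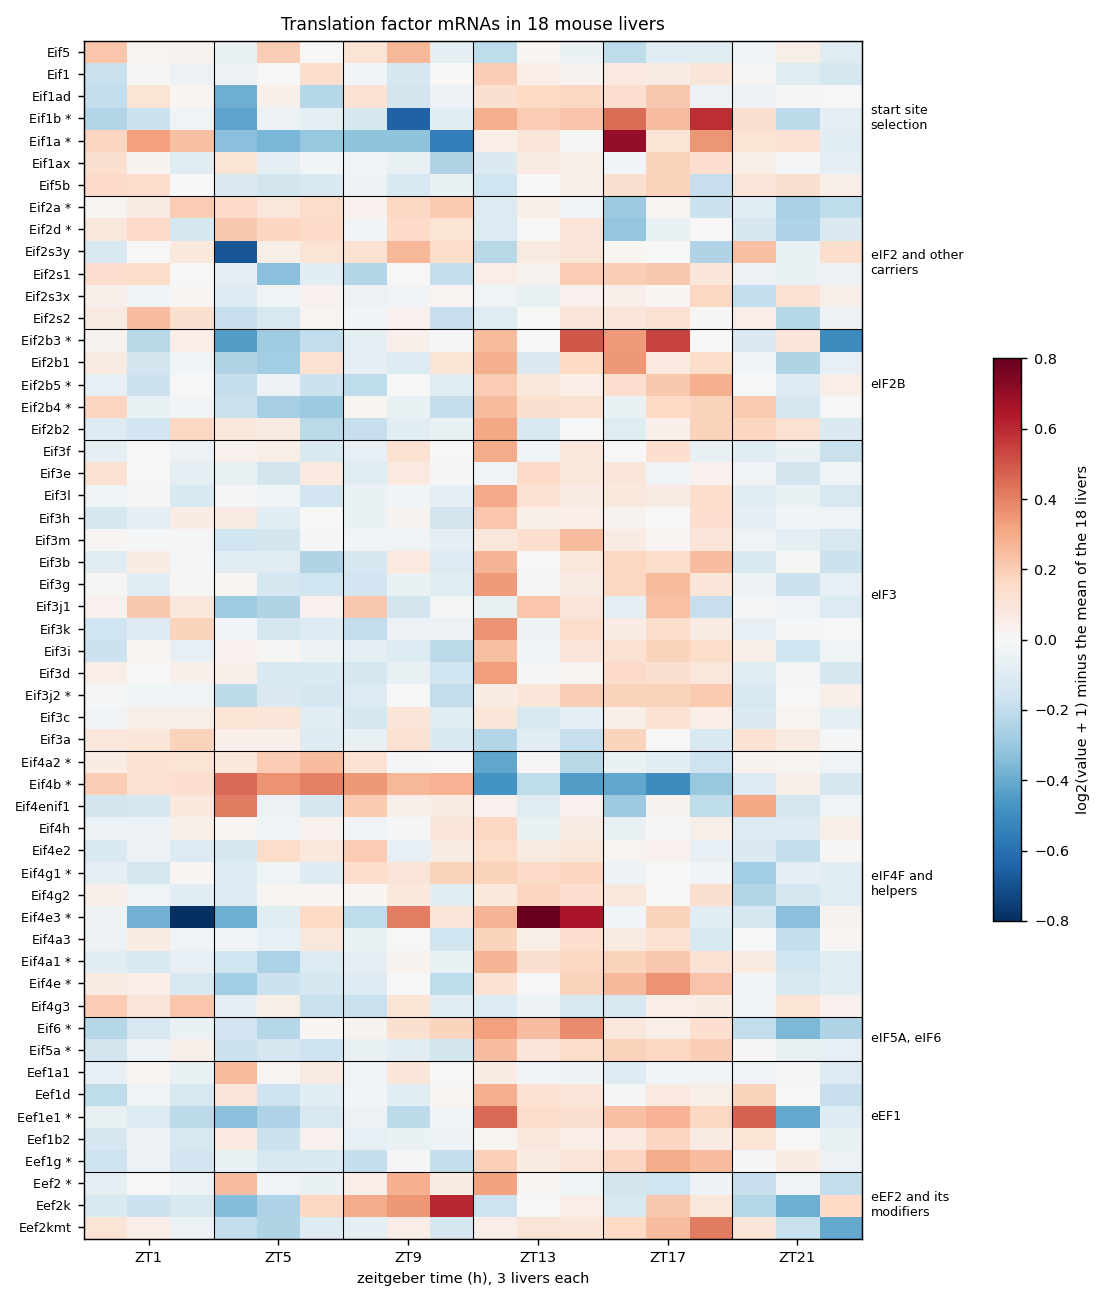
Level of the 54 genes in each of the 18 livers, as log2(value + 1) minus the gene's mean over the livers; columns are livers grouped by ZT, rows are genes grouped by role and ordered by fitted peak, and an asterisk marks the 19 genes called by the 24 h cosine. Eif4b is high in all livers of ZT1, ZT5 and ZT9 and low at ZT13 and ZT17, while most other marked rows are high at ZT13 and ZT17.

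**Figure D3:**
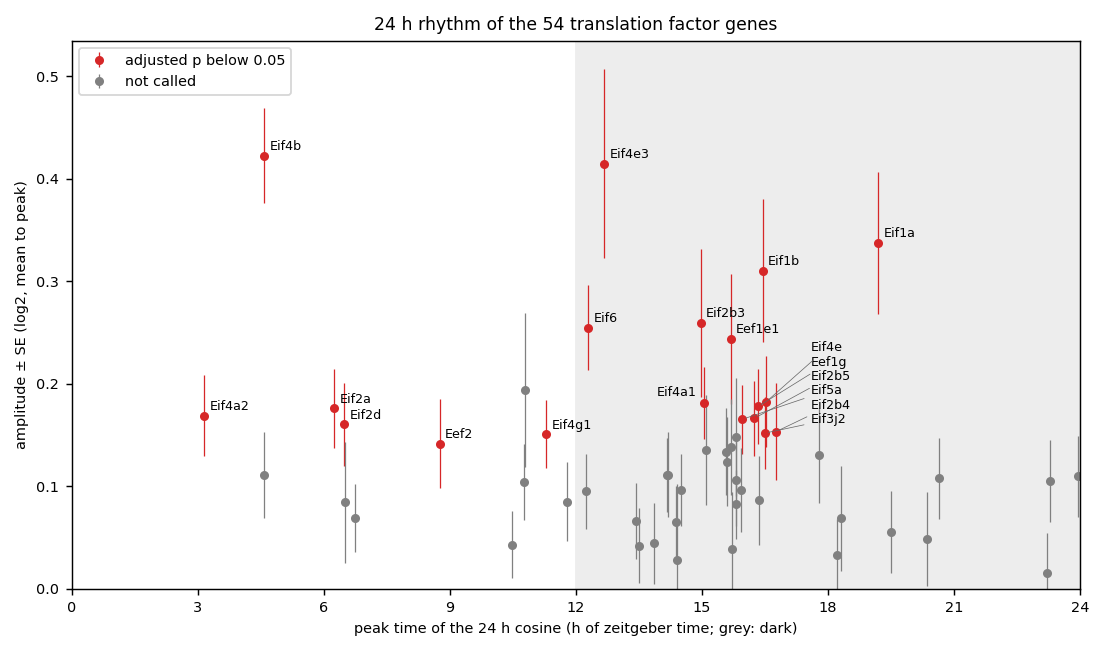
Fitted peak time in hours of ZT against amplitude on the log2 scale with its standard error, 1 point per gene; red points are the 19 called genes and grey shading is the dark. Of the red points, 12 lie between 12 and 18 h, and Eif4b and Eif4e3 have the largest amplitudes at 0.42 and 0.41.

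eIF4F and its helpers had 6 of 12 genes called, beside 35.3% of all genes and 45.0% of those at like levels. By number this was the most of any role, while eIF2B with 3 of 5 and eIF5A and eIF6 with 2 of 2 had larger shares. The called eIF4F genes did not peak together. Eif4b, which encodes the cofactor that stimulates the eIF4A helicase (chromosome 15, 102073773 to 102097173 in GRCm38), measured 212, 213 and 223 in the 3 livers of ZT1, 249, 258 and 267 at ZT5 and 234, 236 and 248 at ZT9. In the dark it measured 139, 142 and 168 at ZT13, 136, 145 and 158 at ZT17 and 176, 179.9 and 199.95 at ZT21. Every light liver was thus above every dark liver, and the mean fell by a factor of 1.76 from ZT5 to ZT17. Its amplitude was 0.42 ± 0.047 (log2 ± SE), its peak 4.58 ± 0.421 h and its adjusted p 1.11e-05 (limma), the smallest of the 54 genes. The dark minus light difference was -0.57 ± 0.052 (log2 ± SE, limma adjusted p = 4.26e-06).

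The eIF4A helicases, which unwind the leader of the message, moved in opposite directions. Eif4a1 (chromosome 11, 69666936 to 69672423) measured 237, 243 and 247 at ZT1, 217, 231 and 239 at ZT5 and 245, 249 and 263 at ZT9. At ZT13 its livers measured 283, 290.1 and 313, at ZT17 280.3, 293 and 299.8 and at ZT21 231, 241 and 271. All livers of ZT13 and ZT17 were above all light livers, and those of ZT21 overlapped them. The fit gave an amplitude of 0.18 ± 0.035, a peak at 15.04 ± 0.734 h and a limma adjusted p of 0.00210. Its paralog Eif4a2 (chromosome 16, 23107444 to 23114136) measured 266, 277 and 277 at ZT1, 271, 295 and 305 at ZT5 and 255, 256 and 278 at ZT9. In the dark Eif4a2 measured 192, 219.9 and 257 at ZT13, 228, 241 and 247 at ZT17 and 250.4, 259 and 261 at ZT21. The lowest value was at ZT13, where the 3 livers also differed most from each other. Eif4a2 peaked at 3.16 ± 0.901 h with an amplitude of 0.17 ± 0.040 (limma adjusted p = 0.00963). Eif4a3, the helicase of the exon junction complex, was not called, with an amplitude of 0.044 ± 0.040 (limma adjusted p = 0.635).

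The ratio of Eif4a1 to Eif4a2 within each liver is free of the scaling of the columns. It was 0.887 ± 0.028 (SD, n = 3) at ZT1, 0.790 ± 0.059 at ZT5 and 0.961 ± 0.076 at ZT9, and it was 1.35 ± 0.27 at ZT13, 1.22 ± 0.031 at ZT17 and 0.965 ± 0.074 at ZT21. The light livers ranged from 0.733 to 1.03 and the dark livers from 0.891 to 1.63, so the ranges overlapped. On the log2 scale the dark minus light difference of the ratio was 0.41 (exact permutation test over 48620 regroupings of the livers, two-sided, p = 0.000823, adjusted over 12 pairs of paralogs p = 0.00494). This test and those of the other ratios regrouped single livers, not whole times. Their p-values thus do not measure how the times within a phase differ from each other. Against Eif4a3, the Eif4a1 ratio differed by 0.15 (adjusted p = 0.0257, exact permutation) and the Eif4a2 ratio by -0.26 (adjusted p = 0.00921, exact permutation). The first of these was between 0.12 and 0.17 with 1 liver left out, and its adjusted p passed 0.05 without ZT5 replicate 2, ZT5 replicate 3 or ZT17 replicate 3, reaching 0.0518. Reads of Eif4a1 carry some doubt, since 33.3% of its 50-base words occurred in other transcripts, mostly of the pseudogene Eif4a-ps4, against 12.7% for Eif4a2 and 24.4% for Eif4a3.

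**Figure D4:**
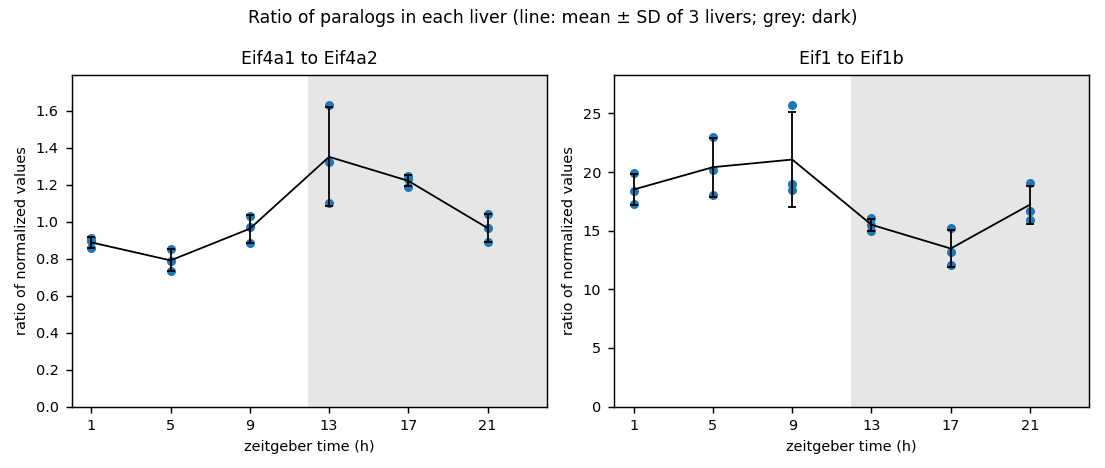
Ratio of the normalized values of Eif4a1 to Eif4a2 and of Eif1 to Eif1b in each liver, not corrected for gene length, against ZT; points are livers, the line and bars are the mean ± SD of 3 livers, and grey is the dark. The Eif4a1 to Eif4a2 ratio rises from 0.790 at ZT5 to 1.35 at ZT13, and the Eif1 to Eif1b ratio falls from 21.1 at ZT9 to 13.5 at ZT17.

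The stretches of 200 bases before the annotated starts of Eif4b, Eif4a1 and Eif4a2 are shown because Eif4b had the smallest adjusted p and the Eif4a paralogs peaked at opposite times of day (RefSeq, GRCm38.p6, given on the strand of the gene, 5′ to 3′). Capitals mark an E-box, CACGTG, the motif that the clock factors CLOCK and BMAL1 and also MYC and USF proteins are known to bind. It reads the same on both strands.
Eif4b chr15:102073573-102073772, + strand: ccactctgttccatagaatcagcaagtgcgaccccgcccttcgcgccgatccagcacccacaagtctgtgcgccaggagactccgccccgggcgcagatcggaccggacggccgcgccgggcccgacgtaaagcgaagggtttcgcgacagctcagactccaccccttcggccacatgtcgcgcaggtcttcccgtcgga
Eif4a1 chr11:69672424-69672623, - strand: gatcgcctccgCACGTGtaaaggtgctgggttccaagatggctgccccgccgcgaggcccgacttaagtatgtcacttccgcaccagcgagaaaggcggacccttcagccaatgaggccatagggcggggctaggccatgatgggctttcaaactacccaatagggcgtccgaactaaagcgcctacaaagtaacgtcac
Eif4a2 chr16:23107268-23107467, + strand: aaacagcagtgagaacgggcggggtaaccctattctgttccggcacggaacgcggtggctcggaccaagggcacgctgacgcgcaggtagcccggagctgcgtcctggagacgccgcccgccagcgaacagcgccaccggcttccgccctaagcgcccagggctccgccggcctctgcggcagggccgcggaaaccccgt
Of the 3, Eif4a1 alone held the motif in this stretch, 189 bases before its start.

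The cap-binding and scaffold subunits also had calls. Eif4e, which binds the cap of the message, measured 40.05, 45.5 and 45.8 at ZT1, 36.03, 38.8 and 39.7 at ZT5 and 37.9, 40.7 and 43.7 at ZT9, and then 43.7, 47.6 and 49.98 at ZT13, 51.6, 52.7 and 56.4 at ZT17 and 40.1, 41.2 and 43.1 at ZT21. All livers of ZT17 were above those of every other time, and the peak was at 16.5 ± 0.927 h with an amplitude of 0.18 ± 0.044 (limma adjusted p = 0.0116). Its relative Eif4e3 measured 2.80, 4.67 and 6.19 at ZT1, 4.64, 5.96 and 7.26 at ZT5, 5.41, 6.89 and 8.81 at ZT9, 7.91, 10.6 and 12.3 at ZT13, 5.93, 6.28 and 7.37 at ZT17 and 4.85, 5.69 and 6.52 at ZT21. These livers scattered widely, and those of ZT13 and ZT9 overlapped. Its amplitude was 0.41 ± 0.092 and its peak at 12.7 ± 0.852 h (limma adjusted p = 0.00644), and JTK did not call it (q = 0.104). Of its 50-base words, 12.8% occurred in other transcripts. Eif4e2, a relative that represses translation, was not called (amplitude 0.10 ± 0.037, limma adjusted p = 0.0855). The ratio of Eif4e to Eif4e2 differed by 0.20 between dark and light (exact permutation, adjusted p = 0.0633).

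Eif4g1, the main scaffold of eIF4F, peaked at the change from light to dark. It measured 362, 379 and 403 at ZT1, 371, 372 and 390.5 at ZT5, 428, 440.3 and 451 at ZT9, 445, 451 and 454 at ZT13, 388, 393 and 398 at ZT17 and 331, 375 and 379.9 at ZT21. All livers of ZT9 and ZT13 were above all others. The peak was at 11.3 ± 0.849 h with an amplitude of 0.15 ± 0.033 (limma adjusted p = 0.00629). Its dark minus light difference was 0.0040 ± 0.045 (adjusted p = 0.960). The related scaffolds Eif4g2 and Eif4g3 were not called, with amplitudes of 0.095 ± 0.037 and 0.10 ± 0.040 and limma adjusted p values of 0.117 and 0.115. Eif4h and Eif4enif1, a relative of Eif4b in function and a carrier of eIF4E into the nucleus, had adjusted p values of 0.537 and 0.488.

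**Figure D5:**
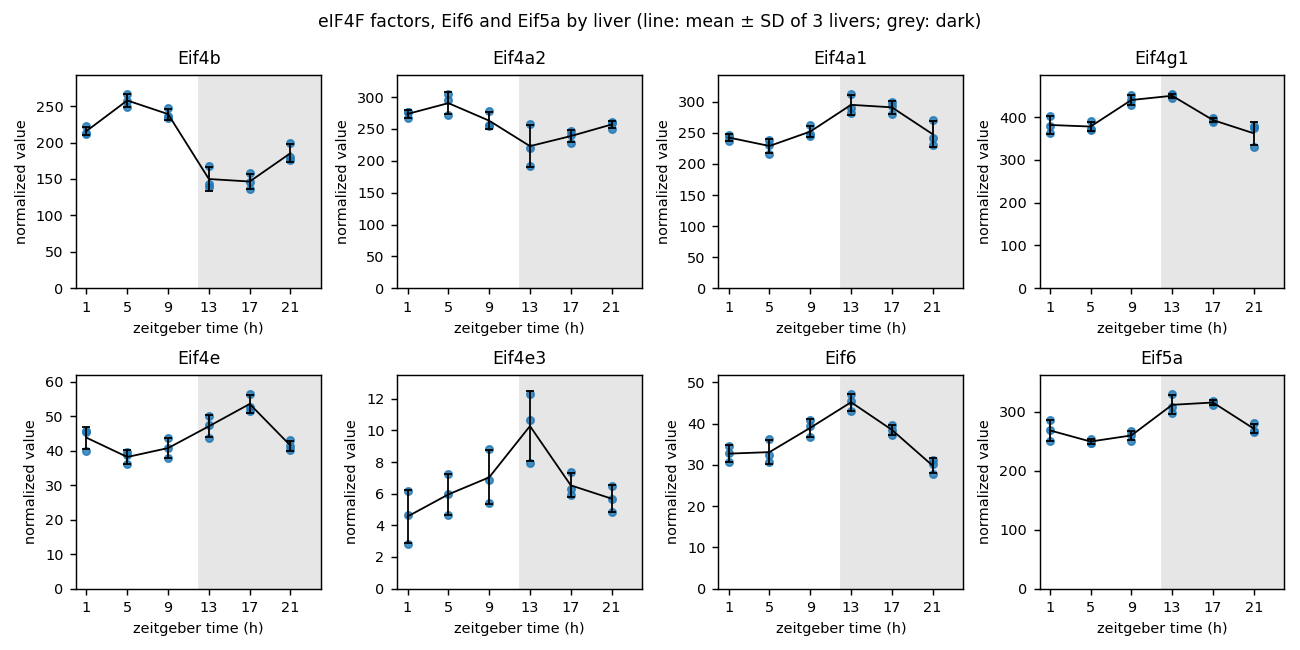
Normalized value of 6 eIF4F genes, Eif6 and Eif5a against ZT; points are livers, the line and bars are the mean ± SD of 3 livers, and grey is the dark. Eif4b and Eif4a2 are highest at ZT5, Eif4g1, Eif4a1, Eif4e3 and Eif6 at ZT13, and Eif4e and Eif5a at ZT17.

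eIF5A helps the ribosome through peptide bonds that are hard to form, and eIF6 keeps the large subunit from joining too early. The genes of both were called, beside 35.3% of all genes and 45.0% of those at like levels. Eif6 measured 30.6, 32.9 and 34.7 at ZT1, 30.6, 32.3 and 36.3 at ZT5, 36.7, 39.5 and 40.8 at ZT9, 42.96, 45.5 and 47.1 at ZT13, 37.4, 38.5 and 39.7 at ZT17 and 27.8, 30.3 and 31.3 at ZT21. The livers of ZT13 were above all others, and the level was lowest at ZT21, within the dark. Its amplitude was 0.25 ± 0.042 and its peak at 12.3 ± 0.623 h (limma adjusted p = 0.000533), and the dark minus light difference was 0.10 ± 0.051 (adjusted p = 0.176). Eif5a measured 251, 269 and 286 at ZT1, 247, 248 and 254 at ZT5, 251, 261 and 268 at ZT9, 298, 308 and 329.8 at ZT13, 312, 316 and 319 at ZT17 and 266, 267 and 281 at ZT21. All livers of ZT13 and ZT17 were above those of the other times. The amplitude was 0.17 ± 0.034 and the peak at 15.96 ± 0.784 h (limma adjusted p = 0.00361).

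Of the 7 genes of start site selection, 2 were called, beside 35.3% of all genes and 45.0% of those at like levels. Eif1a, which encodes eIF1A and helps the subunit scan, measured 56.5, 59.4 and 63.2 at ZT1, 38.6, 39.4 and 40.4 at ZT5, 33.9, 39.8 and 39.9 at ZT9, 50.3, 51.9 and 53.9 at ZT13, 54.02, 64.2 and 82.3 at ZT17 and 47.1, 54.1 and 54.3 at ZT21. The livers of ZT5 and ZT9 were below all others. Its amplitude was 0.34 ± 0.069 with a peak at 19.2 ± 0.787 h (limma adjusted p = 0.00371), the only called peak after 18 h. Its paralog Eif1ax was not called (amplitude 0.055 ± 0.040, adjusted p = 0.507).

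Eif1b, a second gene for the start codon guard eIF1, measured 12.1, 12.8 and 14.1 at ZT1, 10.6, 13.8 and 13.98 at ZT5, 8.90, 13.1 and 13.6 at ZT9, 16.9, 17.2 and 17.99 at ZT13, 17.3, 20.1 and 22.4 at ZT17 and 12.4, 13.7 and 15.9 at ZT21. All livers of ZT13 and ZT17 were above the light livers, and those of ZT21 overlapped them. The amplitude was 0.31 ± 0.070 with a peak at 16.4 ± 0.860 h (limma adjusted p = 0.00693). Eif1 itself, with mean values of 258 ± 17.9 (SD, n = 3) at ZT5 and 266 ± 2.76 at ZT17, was not called (amplitude 0.066 ± 0.037, adjusted p = 0.334). The log2 ratio of Eif1 to Eif1b was lower in the dark by a difference of -0.35 (exact permutation test, p = 0.000288, adjusted over the 12 pairs p = 0.00346), with ratios from 12.03 to 19.04 in dark livers and from 17.3 to 25.7 in light livers. For Eif1, 31.6% of the 50-base words occurred in other transcripts, against 0.811% for Eif1b. The remaining start site genes Eif1ad, Eif5 and Eif5b had limma adjusted p values between 0.0713 and 0.111, and 15.1% of the words of Eif1ad and 18.2% of those of Eif5b were shared with other transcripts.

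Among the 6 genes for carriers of initiator tRNA, 2 were called, beside 35.3% of all genes and 45.0% of those at like levels. No subunit of eIF2 itself was called by the cosine and both alternative carriers were. Eif2s1, Eif2s2, Eif2s3x and Eif2s3y, the alpha, beta and gamma subunits, had limma adjusted p values of 0.0856, 0.667, 0.725 and 0.949. Eif2s1 passed the test for any difference between times (limma adjusted p = 0.0437). Eif2s3x, the highest per kb, ranged from mean values of 86.3 ± 4.06 (SD, n = 3) at ZT5 to 93.1 ± 5.23 at ZT17, and 36.2% of its 50-base words occurred in other transcripts. Eif2a, which encodes a carrier that works apart from eIF2, measured 32.2, 33.4 and 36.6 at ZT1, 33.8, 35.2 and 35.4 at ZT5, 32.5, 35.7 and 36.8 at ZT9, 29.3, 31.2 and 32.9 at ZT13, 25.7, 28.1 and 32.2 at ZT17 and 26.3, 27.4 and 29.8 at ZT21. Its light livers lay high and its ZT21 livers low, with overlap between the phases, and it had an amplitude of 0.18 ± 0.038 with a peak at 6.25 ± 0.834 h (limma adjusted p = 0.00557). Eif2d, a carrier also known for ribosome recycling, had means of 27.1 ± 0.653 (SD, n = 3) at ZT5 and 21.1 ± 1.09 at ZT21. Its amplitude was 0.16 ± 0.041 with a peak at 6.49 ± 0.968 h (limma adjusted p = 0.0153). Both were lower in the dark, with dark minus light differences of -0.24 ± 0.055 and -0.20 ± 0.060 on the log2 scale (adjusted p = 0.00526 and 0.0269).

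eIF2B recharges eIF2 with GTP, and 3 of its 5 subunits were called, all with a peak near 15 to 17 h. The share called was 35.3% over all genes and 45.0% over those at like levels. Eif2b5, the catalytic epsilon subunit and the highest per kb, measured 28.5, 30.8 and 32.1 at ZT1, 28.2, 28.4 and 31.2 at ZT5, 27.8, 30.3 and 32.1 at ZT9, 33.5, 34.4 and 37.2 at ZT13, 35.5, 37.5 and 39.5 at ZT17 and 29.9, 32.3 and 33.4 at ZT21. The livers of ZT13 and ZT17 were above all light livers. It had an amplitude of 0.17 ± 0.036 and a peak at 16.2 ± 0.835 h (limma adjusted p = 0.00565). Eif2b3, the gamma subunit, had means of 7.13 ± 0.708 (SD, n = 3) at ZT5 and 11.4 ± 2.33 at ZT17, with an amplitude of 0.26 ± 0.072 (adjusted p = 0.0267). Eif2b4, the delta subunit, had means of 21.98 ± 1.02 at ZT5 and 29.5 ± 1.61 at ZT13, with an amplitude of 0.15 ± 0.047 (adjusted p = 0.0447). The Eif2b3 call was lost without ZT5 replicate 1 or 2, ZT13 replicate 3, or ZT17 replicate 1 or 2, with adjusted p values of up to 0.0611. The Eif2b4 call held only without ZT1 replicate 1, ZT9 replicate 1, ZT17 replicate 1 or ZT21 replicate 2, and its adjusted p reached 0.109 with 1 liver left out. Eif2b1 and Eif2b2, the alpha and beta subunits, were not called (adjusted p = 0.133 and 0.529). The summed value of the 5 subunits was 89.8 ± 1.14 (SD, n = 3) at ZT5 and 114 ± 2.87 at ZT17.

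eIF3, the large scaffold on the small subunit, had 1 called gene among its 14, beside 35.3% of all genes and 45.0% of those at like levels. The called gene was Eif3j2, with means of 54.8 ± 1.81 (SD, n = 3) at ZT5 and 69.7 ± 0.833 at ZT17, an amplitude of 0.15 ± 0.035 and a peak at 16.5 ± 0.884 h (limma adjusted p = 0.00844). This value is uncertain, since 90.8% of the 50-base words of its transcript occurred in that of Eif3j1, which was not called (adjusted p = 0.839) and shared 54.8% of its own words with other transcripts, and with columns brought to the same total its adjusted p was 0.0797. The amplitudes of the other 13 ran from 0.015 for Eif3c to 0.13 for Eif3b, whose adjusted p was 0.0532. Eif3h, the highest per kb, had means of 83.5 ± 5.19 at ZT9 and 93.8 ± 6.71 at ZT13 (adjusted p = 0.327). Shares of words found in other transcripts were 26.2% for Eif3h, 42.1% for Eif3d and 15.2% for Eif3m, so their values are uncertain as well. In direction 12 of the 14 were above 0 in dark minus light, with a median of 0.10 on the log2 scale, against the 7030 of all 14449 genes that were above 0. With columns brought to the same total, 9 of the 14 were above 0 with a median of 0.043, against 5673 of all 14449 genes with a median of -0.054. The summed value of the 14 genes ranged from 869 to 960 in light livers and from 892 to 1028 in dark livers.

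The elongation factors held the highest levels per kb. Eef1a1, which delivers aminoacyl-tRNA, measured 3875, 3898 and 4128 at ZT1, 4124, 4267 and 4845 at ZT5, 3976, 4051 and 4352 at ZT9, 3947, 3989.5 and 4231 at ZT13, 3785, 3989 and 4005 at ZT17 and 3761, 3969 and 4035 at ZT21. All times overlapped with at least 1 other, and it was not called (amplitude 0.069 ± 0.033, limma adjusted p = 0.235). Of the exchange factor that recharges it, the subunits Eef1b2 and Eef1d were not called (adjusted p = 0.149 and 0.105), and the gamma subunit Eef1g was. Eef1g measured 147, 148 and 159.7 at ZT1, 151, 151 and 159 at ZT5, 144, 144 and 164 at ZT9, 171, 177 and 188 at ZT13, 185, 196 and 203 at ZT17 and 159.6, 164 and 172 at ZT21. Livers of ZT13 and ZT17 were above all light livers, with an amplitude of 0.18 ± 0.036 and a peak at 16.3 ± 0.778 h (limma adjusted p = 0.00339), although 64.3% of its 50-base words occurred in other transcripts. Eef1e1, a scaffold of the complex of tRNA synthetases, had means of 6.71 ± 0.556 (SD, n = 3) at ZT5 and 9.78 ± 1.43 at ZT13, an amplitude of 0.24 ± 0.063 and a peak at 15.7 ± 0.994 h (adjusted p = 0.0177).

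Eef2, the translocase, measured 1136, 1156 and 1198 at ZT1, 1149, 1170.3 and 1415 at ZT5, 1239.5, 1249 and 1458 at ZT9, 1165, 1209 and 1491 at ZT13, 1068, 1079.5 and 1162 at ZT17 and 1047, 1049 and 1172 at ZT21. At each of ZT5, ZT9 and ZT13, 1 liver lay well above the others. The livers of ZT9 were above all those of ZT1, ZT17 and ZT21, and overlapped those of ZT5 and ZT13. Eef2 was called narrowly, with an amplitude of 0.14 ± 0.043, a peak at 8.76 ± 1.17 h and a limma adjusted p of 0.0431. The call was lost without ZT1 replicate 1 or 3, ZT5 replicate 1, ZT9 replicate 2, ZT13 replicate 2, any replicate of ZT17, or ZT21 replicate 1 or 3, with adjusted p values of up to 0.106. Eef2k, the kinase that inhibits eEF2, had its highest mean of 18.8 ± 2.30 (SD, n = 3) at ZT9 and its lowest of 12.4 ± 0.251 at ZT1 without being called (adjusted p = 0.120). Eef2kmt, which methylates eEF2, was not called by the cosine (adjusted p = 0.121) and passed the test for any difference between times (adjusted p = 0.0411), with 26.1% of its words in other transcripts, mostly of Alg1.

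The letters before and around the annotated starts were compared between genes in the 300 bases from 250 before to 50 after the start (RefSeq, GRCm38.p6). A sequence was matched for 43 of the 54 genes. A gene was counted if the window of any of its annotated starts held the motif, so genes with several starts had more chances. CACGTG occurred in 11 of the 43 (25.6%), against 11.5% of tested genes and 8.09% of all genes with a sequence. It occurred in 6 of the 13 called genes with a sequence and in 5 of the 30 that were not called. The same split was not made over all tested genes, so it cannot be set against a background. These counts are a description of letters, with no test and with no measure of binding. The windows of the 6 called genes are shown with the motif in capitals, on the strand of the gene, to let the flanking bases be compared.
Eif4a1 chr11:69672598-69672621, - strand, 189 before the start: tcgcctccgCACGTGtaaaggtgc
Eif5a chr11:69920794-69920817, - strand, 178 before 1 annotated start: ctgcgcggcCACGTGaggtggggg
Eif5a chr11:69921446-69921469, - strand, 74 before another annotated start: gggcggggtCACGTGtgtgcgtca
Eif4e chr3:138527031-138527054, + strand, 228 before the start: gccagcgacCACGTGatcactttt
Eif4e chr3:138527195-138527218, + strand, 64 before the start: cacgtccgtCACGTGggcaggagc
Eif1b chr9:120492573-120492596, + strand, 24 before the start: gcggacggtCACGTGgcggcggcg
Eif4g1 chr16:20672664-20672687, + strand, 54 before the start: agtgggtgtCACGTGatggggcgg
Eif4g1 chr16:20672733-20672756, + strand, 15 after the start: tgcgccggtCACGTGgggcgctgg
Eef2 chr10:81176579-81176602, + strand, 43 before the start: cggcgccgtCACGTGacgcaccca
Their fitted peaks ran from 8.76 h for Eef2 to 16.5 h for Eif4e. The cAMP response element TGACGTCA, the same on both strands, occurred in Eef2 alone (2.33%, against 3.47% of tested genes), and the D-box TTATGTAA, searched on both strands, in none of the 43, against 0.726% of tested genes.

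Many messages for translation factors and ribosomal proteins are known to begin with a run of pyrimidines, the 5′ terminal oligopyrimidine tract, through which mTOR and LARP1 regulate their translation. Searched as a C at the annotated first base with at least 4 C or T after it, such a start occurred in 2 of the 43 genes (4.65%), against 2.99% of tested genes. The start stretches of both genes, with the pyrimidine run from the annotated first base on in capitals and 4 bases before it, are shown because the tract depends on the exact first base.
Eif2s3x chrX:94212630-94212655, - strand: tttcCTTTTCTCTCCgagcaagatgg
Eif3f chr7:108934411-108934436, + strand: ctctCTCTCTTTCTCggcaagatggc
Neither gene was called for a rhythm (limma adjusted p = 0.725 and 0.202). The tract was searched at 1 annotated base only, so the count does not speak for the starts used in liver.

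Genes that act on these factors were looked at as well, with the regulators that the naming rule left out among them. Of 35 genes for regulators, termination and recycling, 17 were called by the 24 h cosine (limma), 7 with a peak before 12 h and 10 after. The share was 35.3% over all genes and 45.0% over genes in the value range of the 54 factors. This list was chosen with earlier results of these data known. Only some called genes are described below, and Atf4, Larp1 and Pabpc1 are among the called ones left out. The median amplitude of the 35 genes was 0.15. Eif4ebp3, a repressor that binds eIF4E, measured 15.2, 15.9 and 18.04 at ZT1, 8.70, 8.79 and 12.1 at ZT5, 25.4, 27.8 and 28.3 at ZT9, 39.2, 40.9 and 139 at ZT13, 50.4, 58.5 and 83.2 at ZT17 and 26.8, 47.7 and 67.03 at ZT21. All but 1 of its dark livers were above all light livers, and its amplitude of 1.32 ± 0.16 with a peak at 16.03 ± 0.456 h (adjusted p = 2.57e-05) was larger than that of any of the 54 factors. Pdcd4, which blocks the eIF4A helicase, measured 121, 125 and 133 at ZT1, 113, 121 and 124 at ZT5, 74.96, 81.8 and 87.00 at ZT9, 54.6, 63.4 and 75.8 at ZT13, 66.9, 72.5 and 84.2 at ZT17 and 94.1, 110.2 and 115 at ZT21. It was low at ZT13, where Eif4a1 was highest, with a peak at 1.64 ± 0.358 h and an amplitude of 0.51 ± 0.047 (adjusted p = 1.98e-06). Mknk2, a kinase of eIF4E, peaked at 10.5 ± 0.561 h with an amplitude of 0.62 ± 0.092 (adjusted p = 0.000214). Eif4ebp2 peaked at 7.19 ± 0.782 h (amplitude 0.28 ± 0.058, adjusted p = 0.00353), and Eif4ebp1 was not called (adjusted p = 0.0811). Of the 4 eIF2 kinases, Eif2ak1 was called (amplitude 0.15 ± 0.039, peak at 4.55 ± 0.986 h, adjusted p = 0.0170).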

How the data were processed

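RNA of 18 WT mouse livers was sequenced after poly(A) selection per the labels. The authors removed adapters with cutadapt, mapped single reads to the GRCm38 transcriptome, estimated counts per gene with RSEM 1.2.20 and normalized them with limma. The deposited values are a linear signal, the estimated count plus 0.5 per 1000000 reads of an effective library size, and 39.1% to 47.9% per liver were whole reads, so log2(value + 1) was tested and tests for whole counts were not used.

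Limma 3.58.1 in R 4.3.3 fitted all 14449 genes above the floor in at least 1 liver, with Benjamini-Hochberg adjustment. The fits were a 24 h cosine and sine, the same with 12 h terms, and 1 mean per time, used for the difference between any of the 6 times and for dark minus light. JTK was rewritten in Python 3.11.15 with periods of 20 to 28 h and q below 0.05. With all livers its null was that of 6 groups of 3, although the cosine has the same height at some of these times. The study's CircaN and MetaCycle were not rebuilt. The scripts were tested on simulated data. Paralog ratios were tested by exact permutation of single livers between dark and light, without regard to their times.

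Groups came from the ZT labels. The labels name separate livers, and the p-values measure the spread between these. Depth was 10268168 to 23242842 estimated reads per liver, and no values of members were at the floor. Coordinates are from GENCODE M21 (GRCm38), promoters from RefSeq (GRCm38.p6). The members and lists were chosen with earlier results of these data known. Named in full are, in each role, the gene highest per kb and up to 3 called genes with the largest amplitude, plus paralog sets. For genes with over 10% of their 50-base words in transcripts of other genes (both strands searched), the share is given where the gene is described. Alternatives were the pseudocount (0.1), the prior variance, a filter on low values, scaling, the threshold and each liver left out.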

Additional observations from a re-analysis of the deposited data

How the results depend on the processing

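The 24 h count of translation factors was 19 and ran from 19 to 22 under the other pseudocount, prior variance, filter and scalings. With 1 liver left out it ran from 16 to 20. Over all genes these counts were 5103, 5013 to 5320 and 4573 to 5088. The count of factors at an adjusted p below 0.01 (limma) was 13, and that over all genes was not taken. Of the 19 calls, 16 were kept in all 18 fits without 1 liver, and Eef2, Eif2b3 and Eif2b4 were not. Among the 5 other settings, Eef2 lost its call with columns scaled by the median of ratios (adjusted p = 0.0504), and Eif2b4 (0.157) and Eif3j2 (0.0797) with columns scaled to the same total. Without the deepest liver, ZT5 replicate 3, 18 of the 19 were called and Eif2b4 was not; this setting and those on paralog ratios were chosen after seeing the data. The JTK count was 9, and 16 when equal cosines were taken as 1 group in the null (over all genes 2039 and 3237). With 1 liver left out it ran from 3 to 11 (over all genes 1266 to 1913), and the cause of this range was not tested. The dark minus light difference of the Eif4a1 to Eif4a3 ratio ran from 0.12 to 0.17 with 1 liver left out, and its adjusted p passed 0.05 without ZT5 replicate 2, ZT5 replicate 3 or ZT17 replicate 3 (up to 0.0518, exact permutation). Counts for any difference between the 6 times ran from 10 to 22 over the settings and from 10 to 15 with 1 liver left out (over all genes 3596 to 4215 and 3245 to 3598), and for dark against light from 10 to 20 and from 11 to 18 (over all genes 3410 to 3715 and 2896 to 3387). The 12 h term at an unadjusted p below 0.05 gave 12 with a prior variance that follows the level, 4 with the median of ratios and 3 with the same total, and over all genes its adjusted calls ran from 32 to 114 with 1 liver left out. Scaling to the same total moved the median gene by -0.09 to 0.09 between livers. No paired analysis was possible because the labels give every mouse its own number and no number is shared between times. Depth limited no member to the floor, but at 3 livers a time, differences between neighbouring times smaller than the SDs given could not be told apart.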

Other observations

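The factors of mitochondrial translation, which work inside the mitochondrion, were measured in 10 of 11 listed genes, and 2 were called by the 24 h cosine (limma), against 35.3% of all genes. These were Gfm2, with an amplitude of 0.16 on the log2 scale, a peak at 22.8 h and an adjusted p of 0.00291, and Mtif2, with an amplitude of 0.20, a peak at 1.77 h and an adjusted p of 0.0178. The summed value of the 10 genes was lowest at ZT9, where the 3 livers ranged from 313 to 320, and the livers of all other times were between 333 and 352.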
